A study of Mus musculus with 18 samples.

Results

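The integrin and laminin genes were followed in E0771 cells, a mouse mammary tumor line that the submitters call triple negative. Members were taken from a fixed list of integrin alpha, integrin beta and laminin chains. All 35 were found by symbol among the 50686 genes of the count tables, 25 of them integrin chains (17 alpha, 8 beta) and 10 laminin chains. RNA sequencing was done on 3 lines, each retrovirally infected with 1 short hairpin RNA. The cntrl line carried a non-targeting hairpin against Renilla, and the shCdk8-1 and shCdk8-2 lines carried different hairpins against Cdk8, the kinase of the Mediator complex. Each line was kept for 48 hours in DMSO or in 1 µM Senexin B (SnxB), an inhibitor of CDK8 and CDK19, with 3 libraries in each of the 6 groups and 18 in all. Every group therefore carried a hairpin, and DMSO served as the vehicle control within each line. Each hairpin is represented by a single infected line, so a difference that belongs to the line and a difference that belongs to the hairpin cannot be told apart. For shCdk8-2, the file headers number the libraries labelled 1, 2 and 3 as 2, 3 and 3 in both treatments, so the libraries labelled 2 and 3 share a header number and may not be separate cultures. Their counts differed by more than sampling noise, with a chi-square per degree of freedom of 10.9 in DMSO and 1.62 in SnxB, where 1 is sampling noise and the 18 within-group pairs ranged from 1.62 to 17.5. They were kept as 2 libraries, and if they are 1 culture, n for shCdk8-2 is 2 and its standard errors are too small. In such bulk samples, fewer cells of a type and less RNA per cell cannot be told apart either.

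Integrins are receptors made of 1 alpha and 1 beta chain that link the matrix outside the cell to the cytoskeleton inside it. The alpha chain largely sets the ligand. Itga3, Itga6 and Itga7 bind laminins, Itga1 and Itga10 bind collagens, and Itga5, Itga8 and Itgav bind the RGD sequence of fibronectin, vitronectin and related proteins. Itgb1 pairs with most alpha chains, Itgb4 pairs with Itga6 at hemidesmosomes, and Itgb2 and Itgb7 are known as leukocyte chains. Laminins are trimers of an alpha, a beta and a gamma chain and form the sheet-like core of basement membranes, where they are bound by the laminin receptors above.

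Library totals ran from 16452260 to 22664693 counts, with a median of 19029320. At these depths 3 counts correspond to 0.132 to 0.182 CPM (counts scaled to a common library size). Cdk8 was 54.8 to 58.6 CPM in the cntrl DMSO libraries, 18.7 to 23.4 CPM with shCdk8-1 and 38.5 to 39.2 CPM with shCdk8-2, so the targeted gene was lower in both knockdown lines and the groups did not overlap. The line was checked against cell type markers. Vim, a mesenchymal intermediate filament, averaged 4431 CPM in the cntrl DMSO cells, and Zeb1 and Zeb2 averaged 191 and 207 CPM, but of the 5 mesenchymal markers Cdh2 was at 0.0386 CPM and Snai2 at 1.70 CPM. By contrast, 6 epithelial markers (Epcam, Krt8, Krt18, Krt19, Cdh1 and Krt7) together reached no more than 0.490 CPM in any cntrl DMSO library. In the knockdown lines the same 6 summed to 8.22 to 9.18 CPM with shCdk8-1 and 12.5 to 14.6 CPM with shCdk8-2 in DMSO, and Krt8 alone averaged 1 CPM or more. Of the hormone receptors, Pgr was at 0 in every library, Erbb2 averaged 55.4 CPM in the cntrl DMSO group, and Esr1 averaged 23.1 CPM there against 1.25 and 0.951 CPM in the knockdown lines. With shCdk8-1 and shCdk8-2 in DMSO, Vim averaged 3912 and 4181 CPM, Zeb1 130 and 134 CPM and Zeb2 166 and 144 CPM. Snai2 averaged 0.0883 and 0.256 CPM and Cdh2 0.0190 and 0 CPM in the same order. Markers of other cell types stood at different levels in the 3 lines in DMSO. Of 4 endothelial markers, Pecam1 averaged 0.286 CPM in cntrl against 14.3 and 5.85 CPM and Cdh5 4.34 CPM against 0.206 and 0.595 CPM, while Kdr and Tek averaged below 1 CPM. Of 6 fibroblast markers, Pdgfra and Pdgfrb were at 286 and 265 CPM in cntrl and at 162 CPM or more in the knockdown lines, Col1a1 was at 0.780 CPM in cntrl against 16.6 and 9.91 CPM, and Col1a2, Dcn and Lum averaged at most 1.82 CPM. The part of these genes in the integrin and laminin results was not tested.

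The promoters of 4 members, chosen after their values were seen, are shown as examples of the patterns described here. They are the strongest decrease (Itgb7), the abundant laminin alpha chain that fell with both hairpins (Lama5), a collagen receptor that fell to the same level in both lines (Itga1) and a collagen receptor that rose in both (Itga10). Of the 10 members given below with values in every library, only 4 had a RefSeq promoter, which limited the choice. None was found for Itga6, Itgal, Itgb2, Itgb3, Itgb4 or Lama3. Each stretch runs from 250 bases before to 50 after the RefSeq start of the gene on GRCm38.p6, read along the strand of the gene. Itgb7 lies at chr15:102231886-102232185 (minus strand), Lama5 at chr2:180225810-180226109 (minus strand), Itga1 at chr13:115101915-115102214 (minus strand) and Itga10 at chr3:96645334-96645633 (plus strand). Capitals mark matches, on either strand, to 5 motifs.
Itgb7: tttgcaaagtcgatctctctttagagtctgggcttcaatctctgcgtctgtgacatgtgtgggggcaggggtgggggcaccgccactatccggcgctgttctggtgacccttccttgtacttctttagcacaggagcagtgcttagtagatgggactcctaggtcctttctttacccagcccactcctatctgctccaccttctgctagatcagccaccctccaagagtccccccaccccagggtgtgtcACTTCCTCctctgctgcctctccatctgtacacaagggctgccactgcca
Lama5: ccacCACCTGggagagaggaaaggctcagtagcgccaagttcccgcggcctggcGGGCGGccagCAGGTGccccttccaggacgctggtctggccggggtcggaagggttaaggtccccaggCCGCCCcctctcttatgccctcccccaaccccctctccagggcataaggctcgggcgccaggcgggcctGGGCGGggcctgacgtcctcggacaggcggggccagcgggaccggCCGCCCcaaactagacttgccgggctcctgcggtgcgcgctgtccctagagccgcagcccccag
Itga1: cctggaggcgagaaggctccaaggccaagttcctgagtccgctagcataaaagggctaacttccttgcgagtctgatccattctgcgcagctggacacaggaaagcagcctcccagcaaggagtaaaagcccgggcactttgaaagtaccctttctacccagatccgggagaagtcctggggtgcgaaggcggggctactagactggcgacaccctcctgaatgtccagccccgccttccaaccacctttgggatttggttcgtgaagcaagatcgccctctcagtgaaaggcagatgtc
Itga10: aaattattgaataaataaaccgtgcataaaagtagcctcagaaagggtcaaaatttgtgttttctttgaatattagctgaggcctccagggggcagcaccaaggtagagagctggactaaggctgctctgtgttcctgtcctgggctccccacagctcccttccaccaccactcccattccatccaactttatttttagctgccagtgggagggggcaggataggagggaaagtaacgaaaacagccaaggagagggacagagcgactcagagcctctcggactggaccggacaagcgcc
In these stretches, the Itgb7 promoter held GAGGAAGT (a purine-rich ETS motif) on the opposite strand. The Lama5 promoter held 4 matches to the GC box GGGCGG and 2 to the E-box CAGGTG, none of them overlapping. The promoters of Itga1 and Itga10 held none of the 5 motifs. RefSeq promoters were found for 23 of the 35 members, 26 promoters in all because 3 members have 2. Counted per promoter, GGGCGG was found in 12 of the 26, CAGGTG in 8, GAGGAAGT in 4, TGACTCA (the AP-1 site) in 2 and TATAAA in 0. Over all 32851 promoters of the same length the shares were 35.7%, 20.2%, 3.20%, 5.20% and 13.6% in the same order. A match describes the letters only, and binding was not measured.

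In the DMSO-treated cntrl cells a few chains made up most of the signal. Levels of different genes were compared per kilobase of exon (CPM divided by exon length, RPKM). Itgb1 stood at 365 RPKM ± 9.48 (SD, n = 3) and was the 41st highest of 21546 genes with counts. Among the beta chains it was followed by Itgb7 at 30.4 RPKM, Itgb5 at 17.5, Itgb2 at 10.7, Itgb3 at 4.71 and Itgb4 at 0.838, and the libraries of neighbours in this order did not overlap. Itgb7 and Itgb2, known from leukocytes, were thus among the 4 most abundant beta chains of these tumor cells.

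The alpha chains were led by Itga6 at 77.6 RPKM ± 1.78 (SD, n = 3), then Itga5 at 46.5, Itgav at 19.9, Itga1 at 17.3 and Itga3 at 8.07. Itga7 (0.937 RPKM) and Itga10 (0.744 RPKM) overlapped, as did Itga8, Itgae and Itga2b, all below 0.1 RPKM on average. Among the laminins a single chain dominated the alpha and gamma classes, with Lama5 at 61.9 RPKM and Lamc1 at 83.4 RPKM, and Lamb2 at 14.8 RPKM exceeded Lamb1 at 2.39 RPKM.

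The filter on low counts left 22 members for testing, 10 integrin alpha, 6 integrin beta and 6 laminin chains. Of the 13 others, 10 had at most 3 counts in every library, namely Itga2, Itga4, Itga9, Itga11, Itgam, Itgax, Itgb6, Itgb8, Lama1 and Lama2. Lama4 reached 4 counts, Lamb3 reached 5 and Itgae, the leukocyte alpha chain that pairs with Itgb7, reached 16 counts (0.875 CPM). Itgb7 was thus measured at 80.3 CPM or more in DMSO-treated cntrl cells whose known partner chains were scarcely detected, Itga4 at 0 counts and Itgae at 5 to 8 counts per cntrl DMSO library. The same held in part for Itgb2, whose listed partners Itgam and Itgax had no more than 1 and 2 counts while Itgal averaged 1.60 CPM. Only partners on the fixed list were looked at. Of the exon bases of Itgam, 68.7% are shared on the same strand with the predicted gene Gm49368, so its low count does not show that the chain was absent.

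To ask how the hairpins against Cdk8 changed these genes, each knockdown line was compared with cntrl in DMSO by edgeR's quasi-likelihood test, with p adjusted by Benjamini-Hochberg over all 12590 genes tested and called under 0.05. With shCdk8-1, 6 of the 22 members rose and 13 fell. Across all genes 30.0% were called higher and 30.6% lower, so a majority of genes moved and the calls of the members are read against that. With shCdk8-2, 6 members rose and 11 fell, against 28.7% higher and 29.5% lower over all genes. Those called higher with shCdk8-1 were Itga3, Itga7, Itga10, Itgal, Itgb4 and Itgb5, and these 6 were also the ones called higher with shCdk8-2. Those called lower with shCdk8-2 were Itga1, Itga6, Itga8, Itgav, Itgb1, Itgb2, Itgb3, Itgb7, Lama3, Lama5 and Lamb2, and with shCdk8-1 Itga5 and Lamb1 were called besides. Both comparisons use the same cntrl libraries, so a list called in both is not 2 independent results. Lamc1, Lamc3 and Itga2b were called with neither.

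With shCdk8-1, 2 members rose (Itgal and Itgb4) and 6 fell (Itga1, Itga6, Itgb2, Itgb3, Itgb7 and Lama3) by more than 2-fold, where the shares over all genes were 5.01% and 7.32%. With shCdk8-2 the counts were 2 (Itga10 and Itgb4) and 5 (Itga1, Itga8, Itgb2, Itgb7 and Lama3), and the shares 4.75% and 6.08%. Sign aside, the log2 fold changes had a median of 0.83 for the members and 0.26 for all genes with shCdk8-1, and 0.80 and 0.24 with shCdk8-2. The members' median signed log2 fold change was -0.38 and -0.26, with 0.00 for all genes in both comparisons.

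**Figure D1:**
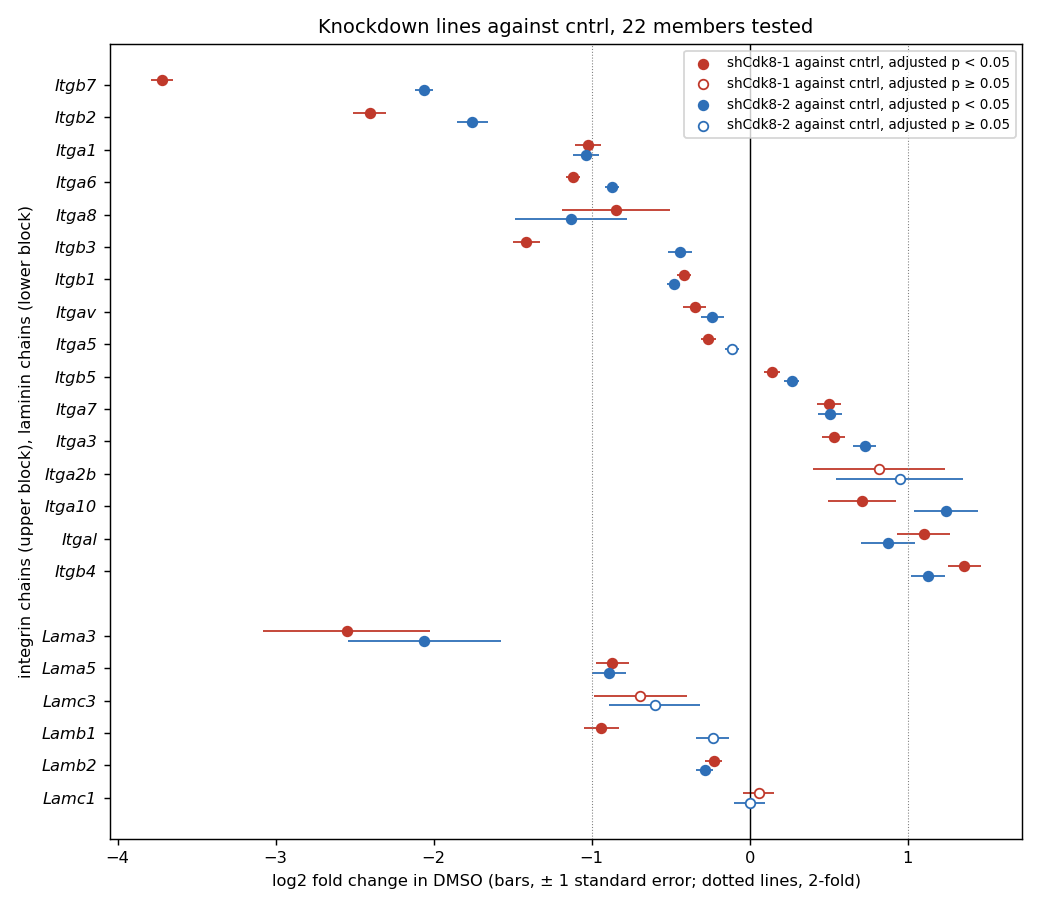
Log2 fold change in DMSO (horizontal axis) of the 22 tested members for shCdk8-1 (red) and shCdk8-2 (blue) against cntrl, with bars of ± 1 standard error, filled points for an adjusted p under 0.05 and dotted lines at 2-fold. Itgb7 lies farthest to the left, at -3.72 and -2.06, and Itgb4 lies at the right with 1.36 and 1.13.

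Itgb7 changed most. It measured 80.3, 83.2 and 86.8 CPM in the cntrl DMSO libraries, 6.53, 6.61 and 5.89 CPM with shCdk8-1 and 19.3, 22.01 and 19.01 CPM with shCdk8-2. The 3 lines formed separate bands, with shCdk8-1 lowest. The log2 fold change was -3.72 ± 0.07 (SE, adjusted p = 6.1e-16), a 13.2-fold decrease, with shCdk8-1 and -2.06 ± 0.06 (adjusted p = 1.1e-13), a 4.17-fold decrease, with shCdk8-2. Under SnxB the decreases were alike, -3.91 ± 0.07 and -2.06 ± 0.06.

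Itgb2, the common beta chain of the leukocyte integrins, followed the same order of lines. Its levels were 36.0, 29.6 and 32.0 CPM in cntrl DMSO, 5.64, 5.41 and 7.33 CPM with shCdk8-1 and 8.79, 10.5 and 9.81 CPM with shCdk8-2, and no library of one line reached into another. It fell by 5.30-fold with shCdk8-1 (log2 fold change -2.41 ± 0.10, adjusted p = 1.1e-11) and by 3.38-fold with shCdk8-2 (-1.76 ± 0.10, adjusted p = 3.0e-10).

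Its partner Itgal moved the other way. It was measured at 1.79, 1.30 and 1.71 CPM in cntrl DMSO, 3.15, 3.25 and 3.93 CPM with shCdk8-1 and 2.74, 2.86 and 3.29 CPM with shCdk8-2. Both knockdown lines lay above cntrl and overlapped each other. The log2 fold changes were 1.1 ± 0.17 (adjusted p = 2.7e-05) and 0.88 ± 0.17 (adjusted p = 0.00034).

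Because these 3 chains are known from leukocytes, a list of 11 leukocyte markers was summed in the same libraries. It came to 10.1 to 11.5 CPM in cntrl DMSO, 3.36 to 4.65 CPM with shCdk8-1 and 4.44 to 5.31 CPM with shCdk8-2. Lyz2 averaged 4.45 CPM in cntrl DMSO and fell to 2.17 and 1.97 CPM (adjusted p = 0.00067 and 0.00028). Ly6g averaged 2.91 CPM in cntrl DMSO and fell to 0 and 0.0435 CPM (adjusted p = 6.1e-08 and 1.3e-07). Cd68, a macrophage marker, averaged 2.53, 1.79 and 2.52 CPM in the same order (adjusted p = 0.064 and 0.90). Csf1r, the receptor of macrophage growth factor, had 5 to 9 counts per cntrl DMSO library, 0 to 1 with shCdk8-1 and 1 to 2 with shCdk8-2, and Ptprc, the pan-leukocyte surface marker, had 3 to 7 counts, 0 to 1 and 0. Cd3e, Ncr1 and Adgre1 had at most 1 count in any library, and the other 3 markers averaged at most 0.168 CPM in a DMSO group. Lyz2, Ly6g, Csf1r and Ptprc were thus lower in the lines in which Itgb7 and Itgb2 were lower, and their part in these results was not tested.

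Itgb3, which pairs with Itgav as a vitronectin receptor, also fell, and more with shCdk8-1. Its levels were 29.6, 27.1 and 26.7 CPM in cntrl DMSO, 10.3, 10.5 and 10.4 CPM with shCdk8-1 and 20.02, 19.8 and 21.9 CPM with shCdk8-2, in 3 separate bands. The log2 fold changes were -1.41 ± 0.08 (adjusted p = 5.1e-10) and -0.44 ± 0.08 (adjusted p = 0.00012). Itga2b, the platelet partner of Itgb3, averaged 0.336 CPM in cntrl DMSO and passed the test with neither hairpin (adjusted p = 0.10 and 0.056), although without replicate 2 of shCdk8-1 it passed as higher with both (adjusted p = 0.024 and 0.036). A list of 4 platelet markers (Pf4, Gp9, Gp1bb and Ppbp) summed to 1.57 to 2.16 CPM in cntrl DMSO, 0.188 to 0.465 CPM with shCdk8-1 and 0.603 to 0.970 CPM with shCdk8-2. In the same order Pf4 averaged 0.841, 0.0344 and 0.134 CPM and Ppbp 0.684, 0.154 and 0.429 CPM. Gp1bb averaged 0.183, 0.0727 and 0.0315 CPM, and Gp9 0.0901, 0.0519 and 0.148 CPM, highest with shCdk8-2. The fall of Ppbp with shCdk8-2 was not called (adjusted p = 0.17). The part of this list in the Itgb3 result was not tested.

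Among the laminin receptors, Itga6 fell and Itgb4, its partner at hemidesmosomes, rose. Itga6 was measured at 707, 682 and 712 CPM in cntrl DMSO, 317, 338 and 316 CPM with shCdk8-1 and 380, 382 and 390 CPM with shCdk8-2. All knockdown libraries lay below all cntrl libraries, with shCdk8-2 above shCdk8-1. The log2 fold changes of Itga6 were -1.12 ± 0.04 (adjusted p = 4.6e-12) and -0.87 ± 0.04 (adjusted p = 1.3e-10). Itgb4 measured 6.35, 5.31 and 5.98 CPM in cntrl DMSO, 15.2, 15.7 and 14.3 CPM with shCdk8-1 and 11.5, 13.6 and 13.8 CPM with shCdk8-2. Every knockdown library was above every cntrl library, and Itgb4 rose by 2.56-fold (log2 fold change 1.36 ± 0.11, adjusted p = 1.4e-08) and 2.19-fold (1.13 ± 0.11, adjusted p = 1.9e-07). Of 5 markers of the basal epithelial cells in which Itgb4 is best known, Krt5, Krt14 and Trp63 had 0 counts in cntrl DMSO. Trp63 had 2 to 4 counts with shCdk8-1 and 2 to 11 with shCdk8-2, Krt14 had 0 with shCdk8-1 and 1 in each shCdk8-2 library, Krt5 had at most 1, and Myh11 averaged at most 0.0532 CPM. Acta2 averaged 142 CPM in cntrl, 94.6 with shCdk8-1 (log2 fold change -0.59 ± 0.04, adjusted p = 5.9e-09) and 209 with shCdk8-2 (0.55 ± 0.04, adjusted p = 1.4e-08). The part of these markers in the Itgb4 result was not tested.

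The other laminin-binding alpha chains rose. Itga3 went from 44.6 to 48.1 CPM in cntrl DMSO to 63.4 to 69.5 CPM with shCdk8-1 (log2 fold change 0.53 ± 0.07, adjusted p = 1.1e-05) and 75.05 to 78.8 CPM with shCdk8-2 (0.73 ± 0.07, adjusted p = 3.7e-07). Itga7 rose by 0.50 ± 0.07 and 0.51 ± 0.07 on the log2 scale (adjusted p = 2.6e-05 and 2.3e-05). Neither gene overlapped with cntrl in either line.

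The 2 measurable collagen receptors parted. Itga1 was measured at 106, 102 and 103 CPM in cntrl DMSO, 47.4, 58.0 and 47.6 CPM with shCdk8-1 and 50.2, 50.2 and 51.3 CPM with shCdk8-2. It fell to overlapping levels in both lines (log2 fold change -1.03 ± 0.08, adjusted p = 2.0e-08, and -1.04 ± 0.08, adjusted p = 2.3e-08). Itga10 measured 4.25, 4.82 and 2.5 CPM in cntrl DMSO, 6.63, 4.62 and 7.39 CPM with shCdk8-1 and 9.53, 9.50 and 8.05 CPM with shCdk8-2. The shCdk8-1 libraries overlapped with cntrl and the shCdk8-2 libraries did not. The log2 fold changes of Itga10 were 0.71 ± 0.21 (adjusted p = 0.0089) and 1.24 ± 0.20 (adjusted p = 6.2e-05). Without the third cntrl DMSO library the shCdk8-1 value was 0.46 and no longer passed (adjusted p = 0.063). Of the exon bases of Itga10, 33.5% are shared on the same strand with the predicted gene Gm42957, so its counts are uncertain to that extent.

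Among the RGD-binding chains, Itgav fell by 0.35 ± 0.07 and 0.24 ± 0.07 on the log2 scale (adjusted p = 0.00064 and 0.011). Itga5, the fibronectin receptor chain, fell with shCdk8-1 (-0.26 ± 0.05, adjusted p = 0.00015) and had a value of -0.11 ± 0.05 (adjusted p = 0.052) with shCdk8-2. Itga8 was close to the limit of counting, with 8, 15 and 13 counts in cntrl DMSO, 10, 7 and 4 with shCdk8-1 and 6, 7 and 5 with shCdk8-2. Its log2 fold changes were -0.85 ± 0.34 (adjusted p = 0.045) and -1.13 ± 0.35 (adjusted p = 0.012). The first call was lost without any 1 of 9 of the 12 libraries, with an adjusted p of up to 0.23 (without the third shCdk8-1 library), and the second without the second cntrl library (adjusted p = 0.072). DESeq2 called neither (adjusted p = 0.14 and 0.0505).

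The abundant Itgb1 fell by 0.42 ± 0.04 and 0.48 ± 0.04 on the log2 scale (adjusted p = 5.1e-07 and 1.1e-07), from 1447 to 1524 CPM in cntrl DMSO to 1073 to 1166 CPM with shCdk8-1 and 1049 to 1085 CPM with shCdk8-2. Itgb5 rose slightly, by 0.14 ± 0.05 (adjusted p = 0.021) and 0.27 ± 0.05 (adjusted p = 0.00019). The smaller value of Itgb5 did not pass without the third cntrl library (adjusted p = 0.11), the first shCdk8-1 library (0.055) or the second shCdk8-1 library (0.068).

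**Figure D2:**
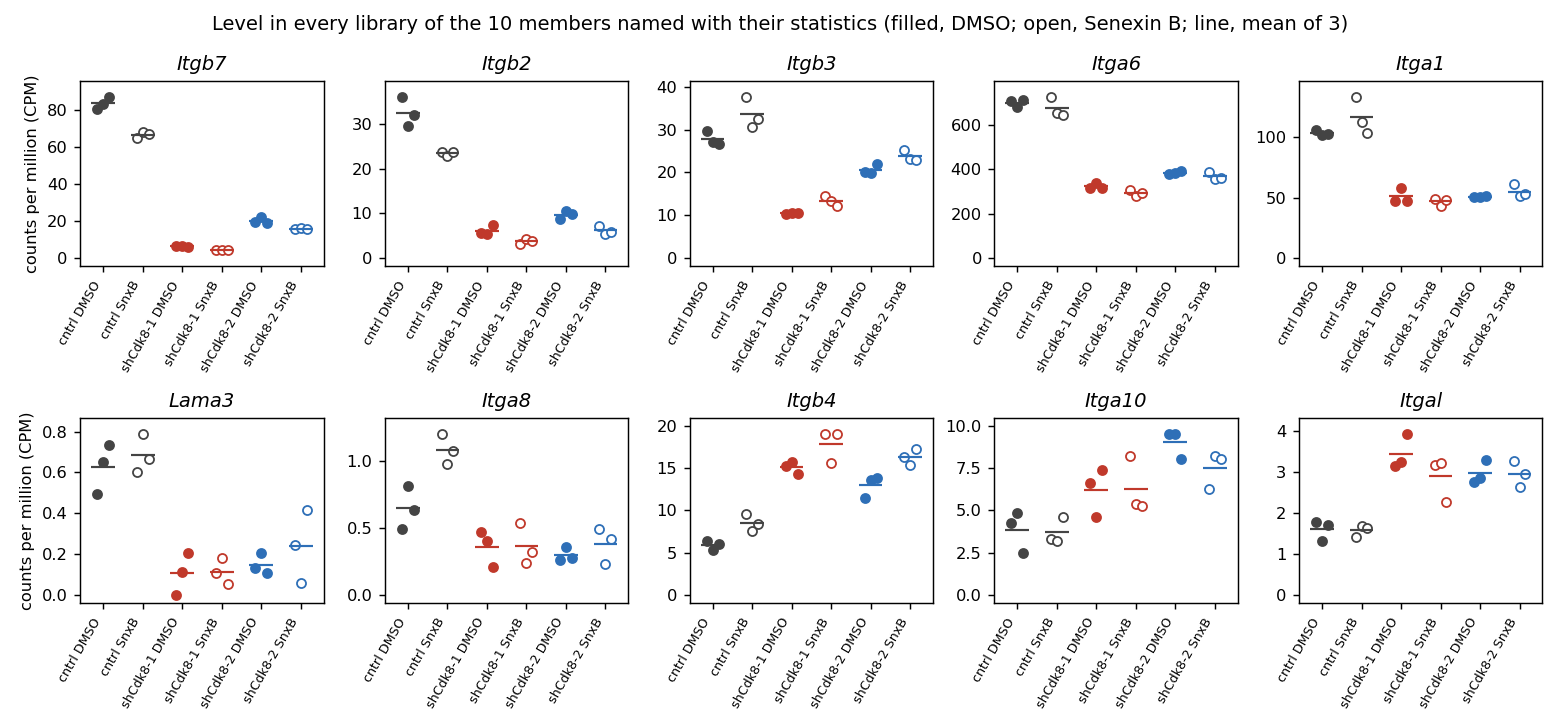
CPM (vertical axes, each starting just below 0) of 10 members in every library, by line and treatment, with filled points for DMSO, open points for SnxB and a line at the mean of 3. Itgb7, Itgb2, Itgb3, Itga6, Itga1, Lama3 and Itga8 lie highest in the cntrl line (Itgb7 at 80.3 to 86.8 CPM in DMSO), and Itgb4 and Itgal lie highest in the knockdown lines.

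The laminin chains that could be tested fell or did not pass. Lama5, the laminin alpha chain with the most RNA in these cells, averaged 705 CPM ± 35 (SD, n = 3) in cntrl DMSO, 387 ± 48.6 with shCdk8-1 and 382 ± 16.5 with shCdk8-2. It fell nearly equally (log2 fold change -0.87 ± 0.11, adjusted p = 2.7e-06, and -0.89 ± 0.11, adjusted p = 2.4e-06), and both knockdown groups lay below cntrl. Lamb1 fell with shCdk8-1 (-0.94 ± 0.11, adjusted p = 1.7e-06), from 22.8 to 24.7 CPM to 10.3 to 14.8 CPM, and had a value of -0.23 ± 0.10 (adjusted p = 0.061) with shCdk8-2. Lamb2, the more abundant beta chain, fell by 0.23 ± 0.05 and 0.29 ± 0.05 on the log2 scale (adjusted p = 0.0012 and 0.00019).

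Lamc1, the laminin gamma chain with the most RNA, averaged 690 CPM in cntrl DMSO, 719 with shCdk8-1 and 693 with shCdk8-2. The groups overlapped and the log2 differences were 0.06 ± 0.10 (adjusted p = 0.64) and -0.00 ± 0.10 (adjusted p = 1.0). Lamc3 averaged 1.42, 0.873 and 0.921 CPM in the same order and passed in neither comparison (adjusted p = 0.055 and 0.087). The shCdk8-1 value of Lamc3 passed without replicate 3 of shCdk8-1 or of shCdk8-2 (adjusted p = 0.030 for both), and the shCdk8-2 value without replicate 2 of shCdk8-2 (0.045). Lamb1 with shCdk8-2 passed without replicate 2 or 3 of shCdk8-1 (0.024 and 0.035) or replicate 1 of cntrl SnxB (0.030), and Itga5 with shCdk8-2 without replicate 2 of shCdk8-1 (0.048) or replicate 1 or 2 of cntrl SnxB (0.011 and 0.039). With no filter and with only the groups compared, Lamb1 with shCdk8-2 also passed (0.011 and 0.0062), as did Itga5 with shCdk8-2 (0.030 and 0.013) and Lamc3 with shCdk8-1 (0.044 and 0.036). Itga5 passed with the 1 CPM filter as well (0.048), and its shCdk8-2 libraries all lay below cntrl. Thus Lama5 RNA was lower in the knockdown lines than in cntrl while no change of Lamc1 RNA was called. Laminin proteins and trimers were not measured.

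Lama3, a chain of the epithelial laminins, was near the limit of counting. It had 8, 12 and 15 counts in cntrl DMSO, 0, 2 and 4 with shCdk8-1 and 3, 4 and 2 with shCdk8-2, and the cntrl libraries did not overlap with either. Scaled for depth, the summed 35 counts in cntrl were 6.16 times those with shCdk8-1 (95% counting interval 2.56 to 17.9) and 4.29 times those with shCdk8-2 (2.02 to 10.2). The adjusted p was 0.00056 and 0.0017. The counting intervals cover counting error only.

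The make-up of each class shifted with these changes. The summed level of the 17 listed integrin alpha chains was 172 RPKM ± 3.45 (SD, n = 3) in cntrl DMSO, 114 ± 4.82 with shCdk8-1 and 128 ± 1.21 with shCdk8-2. Itga6 made up 45.2% ± 0.54 of that sum in cntrl, 31.5% ± 0.14 with shCdk8-1 and 33.1% ± 0.36 with shCdk8-2. Itga5 became the leading alpha chain with shCdk8-1, at 34.1% ± 0.72, and stood at 33.6% ± 0.43 with shCdk8-2, where its libraries overlapped with those of Itga6. Itga3 went from 4.71% to 10.3% and 10.5%. Among beta chains, Itgb1 made up 85.0% of 429 RPKM in cntrl, 90.9% of 301 RPKM with shCdk8-1 and 87.6% of 299 RPKM with shCdk8-2, and Itgb7 went from 7.09% to 0.767% and 2.45%. The laminin alpha sum, nearly all Lama5, was 62.0, 34.0 and 33.6 RPKM in the same order, and the laminin gamma sum 83.6, 87.0 and 83.9 RPKM. These shares are descriptions and were not tested.

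**Figure D3:**
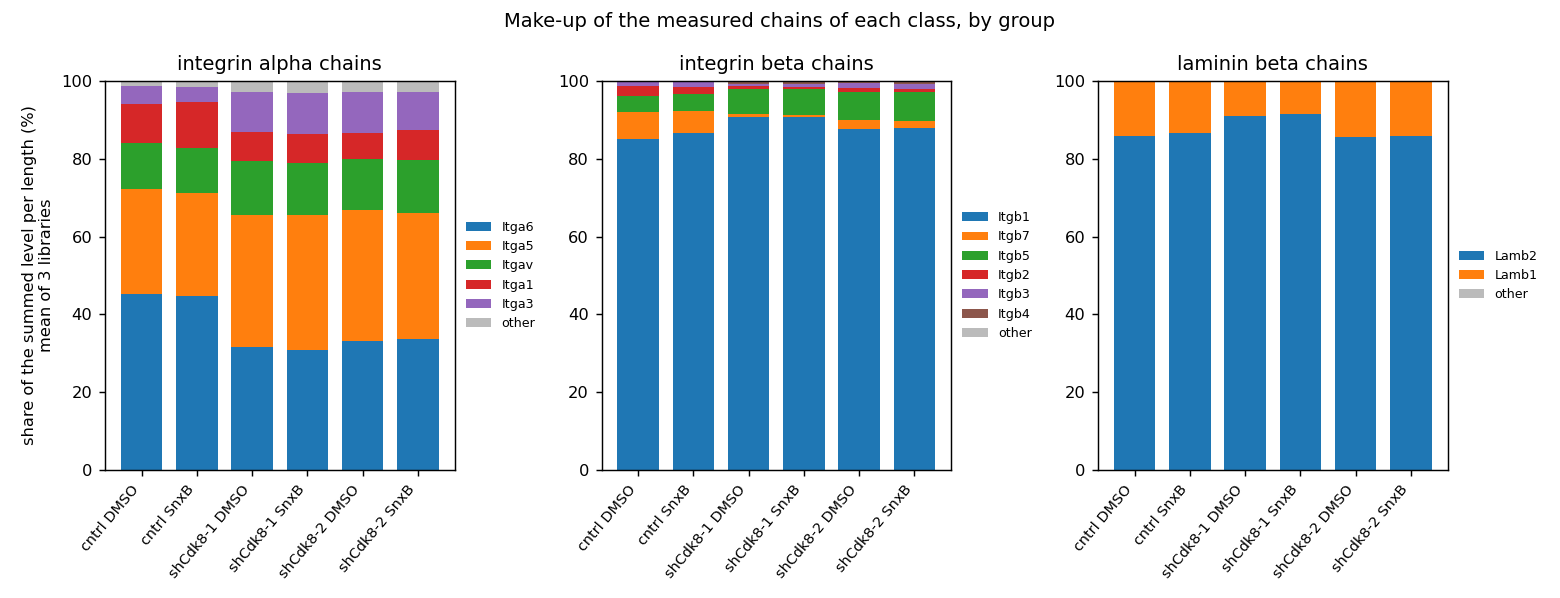
Stacked bars of the mean share (percent, n = 3) of each chain in the summed RPKM of its class, for integrin alpha chains, integrin beta chains and laminin beta chains in the 6 groups. The Itga6 share is 45.2% in cntrl DMSO against 31.5% and 33.1% in the knockdown lines, and Itgb1 makes up 85.0% or more of the beta chains in every group.

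The 2 hairpins were then compared directly in DMSO. Of the 22 members, 7 were higher with shCdk8-2 than with shCdk8-1 (Itga5, Itga6, Itga10, Itgb2, Itgb3, Itgb7 and Lamb1) and 0 lower, where 11.3% of all genes were called higher and 10.6% lower. At an unadjusted p under 0.05 there were 10 members, a threshold at which the share over all genes was not counted. By more than 2-fold, 1 member was higher and 0 lower, against 1.37% and 0.699% of all genes. That member was Itgb7, at a log2 difference of 1.66 ± 0.08 (adjusted p = 1.2e-09). Itgb3 differed by 0.97 ± 0.09 (adjusted p = 9.7e-07), Lamb1 by 0.70 ± 0.11 (adjusted p = 0.00027), Itgb2 by 0.65 ± 0.12 (adjusted p = 0.0010) and Itga6 by 0.24 ± 0.04 (adjusted p = 0.0010). Cdk8 itself was higher with shCdk8-2 by 0.85 ± 0.07 (adjusted p = 3.1e-07), and its part in these differences was not tested. The differences of Itga10 (0.53 ± 0.18, adjusted p = 0.047) and Itga5 (0.15 ± 0.05, adjusted p = 0.031) were marginal. Of the 6 knockdown libraries, leaving out any but replicate 3 of shCdk8-1 ended the Itga10 call (adjusted p of up to 0.15), as did leaving out replicate 1 of cntrl DMSO (0.058) or replicate 2 of cntrl SnxB (0.0504). Leaving out any but replicate 2 of shCdk8-1 ended the Itga5 call (adjusted p of up to 0.097).

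SnxB moved far fewer of these genes. In cntrl cells 2 members rose (Itgb3 and Itgb4) and 2 fell (Itgb2 and Itgb7), against 3.42% of all genes called higher and 2.10% lower, and no member changed by 2-fold. When libraries were scaled by their totals instead of by TMM, the split over all genes turned from 431 higher and 265 lower to 361 higher and 379 lower. All 4 called members were beta chains. Itgb7 measured 64.7, 68.0 and 66.9 CPM with SnxB, below the 80.3 to 86.8 CPM in DMSO (log2 fold change -0.33 ± 0.05, adjusted p = 0.0011). Itgb2 measured 23.8, 22.9 and 23.8 CPM, below the 29.6 to 36.0 CPM in DMSO (-0.47 ± 0.09, adjusted p = 0.0037). The SnxB and hairpin comparisons share the cntrl DMSO libraries. For Itgb7 their log2 fold changes were -0.33 with SnxB, -3.72 with shCdk8-1 and -2.06 with shCdk8-2, and for Itgb2 they were -0.47, -2.41 and -1.76.

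Itgb4 measured 9.57, 7.56 and 8.41 CPM in cntrl cells with SnxB and lay above the DMSO libraries (log2 fold change 0.53 ± 0.11, adjusted p = 0.011). This call was lost without the second cntrl DMSO library (0.46, adjusted p = 0.066). Acta2, the only one of 5 basal or myoepithelial markers above 1 CPM, went from 142 to 419 CPM in the same comparison, and its part was not tested. Itgb3 measured 37.6, 30.6 and 32.4 CPM with SnxB against 26.7 to 29.6 CPM in DMSO. Its log2 fold change of 0.27 ± 0.07 (adjusted p = 0.042) stands beside -1.41 and -0.44 with the hairpins, which share those DMSO libraries. That call was lost without replicate 2 or 3 of cntrl DMSO (adjusted p = 0.15 and 0.14), without replicate 1 or 3 of cntrl SnxB (0.15 and 0.065), and without any 1 of 4 knockdown libraries (0.051 to 0.059). It was also lost with library totals (0.0505) and with only the groups compared in the fit (0.086).

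Itga1, Itga6 and Lama5, which fell with both hairpins, had values of 0.17 ± 0.08, -0.05 ± 0.04 and 0.07 ± 0.10 with SnxB in cntrl cells (adjusted p = 0.25, 0.57 and 0.79). Their DMSO and SnxB libraries overlapped. For Itga1 the SnxB libraries measured 133, 113 and 104 CPM and for Itga6 725, 654 and 643 CPM. Itga8 had 22, 21 and 21 counts with SnxB, above the 8 to 15 in DMSO, without passing the test (0.72 ± 0.27, adjusted p = 0.15).

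Within the knockdown lines, SnxB gave 2 calls in each line. In shCdk8-1 cells 0 members rose and 2 fell, Itgb2 (-0.70 ± 0.15, adjusted p = 0.018) and Itgb7 (-0.52 ± 0.10, adjusted p = 0.0055), where 0.916% of all genes were called higher and 0.564% lower. Itgb7 measured 4.41, 4.16 and 4.66 CPM there and Itgb2 3.17, 4.40 and 3.81 CPM, all below the DMSO libraries of the same line. In shCdk8-2 cells 0 members rose and 2 fell, again Itgb2 (-0.63 ± 0.13, adjusted p = 0.0099) and Itgb7 (-0.33 ± 0.06, adjusted p = 0.0063), against 0.987% higher and 1.06% lower. The levels with SnxB were 15.8, 16.5 and 15.5 CPM for Itgb7 and 7.19, 5.52 and 5.91 CPM for Itgb2. Several of these calls rested on single libraries. The Itgb2 call in shCdk8-1 cells was lost without the third DMSO library (adjusted p = 0.12), the first SnxB library (0.060) or the third SnxB library (0.078). In shCdk8-2 cells the Itgb2 call was lost without the second DMSO library (0.072), the second SnxB library (0.084) or the third SnxB library (0.063), and the Itgb7 call without the second DMSO library (0.062). With only the 6 shCdk8-1 libraries in the fit, neither call held in that line (adjusted p = 0.15 for Itgb2 and 0.11 for Itgb7).

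Itgb3 and Itgb4 had values above 0 with SnxB in the knockdown lines and missed the threshold. Itgb3 had values of 0.35 ± 0.09 (adjusted p = 0.059) in shCdk8-1 and 0.21 ± 0.08 (adjusted p = 0.24) in shCdk8-2 cells, and Itgb4 of 0.25 ± 0.09 (adjusted p = 0.23) and 0.34 ± 0.10 (adjusted p = 0.083). The Itgb3 value in shCdk8-1 cells passed with DESeq2 (adjusted p = 0.048), library totals (0.037), no filter on low counts (0.015) and a replicate block (0.036). It also passed without replicate 1 or 2 of cntrl SnxB (0.024 and 0.048). The Itgb4 value in shCdk8-2 cells passed with no filter (0.034) and without replicate 2 of shCdk8-1 SnxB (0.046).

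**Figure D4:**
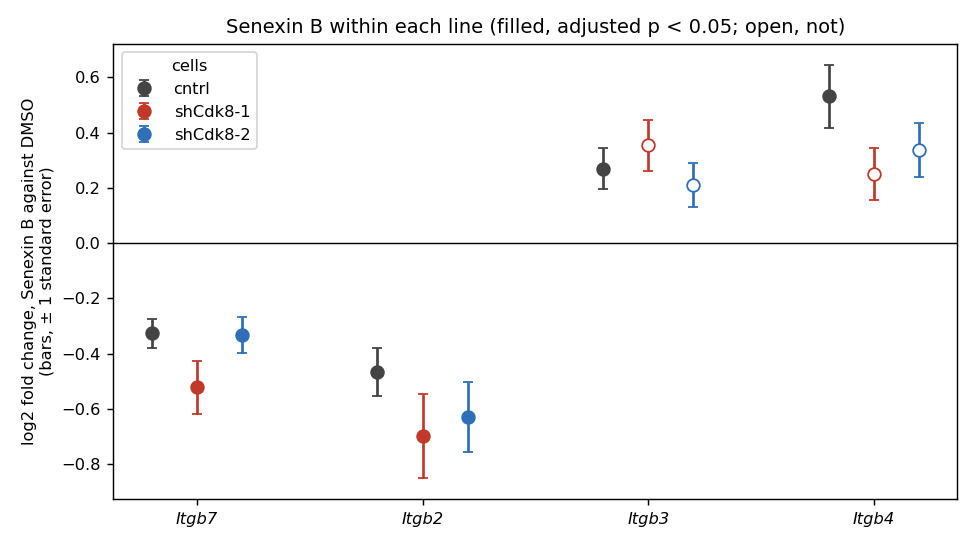
Log2 fold change of SnxB against DMSO (vertical axis, bars of ± 1 standard error) for 4 integrin beta chains within cntrl, shCdk8-1 and shCdk8-2 cells, with filled points for an adjusted p under 0.05. Itgb7 and Itgb2 are below 0 in all 3 lines (-0.33 to -0.70), and Itgb3 and Itgb4 are above 0 in all 3 (0.21 to 0.53).

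Whether the response to SnxB differed between the lines was tested as an interaction over all 18 libraries. With shCdk8-1, 0 of 22 members passed, where 0.305% of all 12772 genes did, and 2 had an unadjusted p under 0.05 (Itga1 and Lamb2, adjusted p of 0.46 for both). With shCdk8-2, 0 members passed, where 0.0548% of genes did, and 1 had an unadjusted p under 0.05 (Itga7, adjusted p = 0.72). The share over all genes at that unadjusted threshold was not counted. DESeq2 also called 0 members in both. Without the filter on low counts edgeR called 3 members for shCdk8-1 (Lama5, Lamc1 and Itga1). Over all genes, 56 of 27330 were then called higher and 333 lower, against 9 and 30 of 12772 with the filter. The interaction of Itgb7 was -0.19 ± 0.11 for shCdk8-1 and -0.01 ± 0.08 for shCdk8-2, while Itgb2 had -0.23 ± 0.18 and -0.16 ± 0.16. Itgb3 had 0.08 ± 0.12 and -0.06 ± 0.11, and Itgb4 had -0.28 ± 0.15 and -0.19 ± 0.15.

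The knockdown comparisons were repeated between cells that all received SnxB. With shCdk8-1, 5 members were higher and 13 lower than cntrl, against 30.5% and 30.1% of all genes. With shCdk8-2, 5 were higher and 13 lower, against 28.1% and 28.6%. Those called higher were Itga3, Itga7, Itga10, Itgal and Itgb4 with shCdk8-1 and Itga3, Itga10, Itgal, Itgb4 and Itgb5 with shCdk8-2. Itga8 had log2 fold changes of -1.54 ± 0.32 (adjusted p = 0.00034) and -1.48 ± 0.32 (adjusted p = 0.00049), where the cntrl counts were larger than in DMSO. Lama3 summed to 41 counts in cntrl, 6 with shCdk8-1 and 13 with shCdk8-2, ratios of 6.25 (2.64 to 18.02) and 2.91 (1.53 to 5.92). The shCdk8-2 call for Lama3 was lost without the second SnxB library of that line (adjusted p = 0.055). The call of Itga10 with shCdk8-1 was lost without replicate 1 of that line under SnxB (adjusted p = 0.066). With shCdk8-2, that of Itgav was lost without replicate 1 of cntrl (0.098) or replicate 3 of shCdk8-2 (0.072), and that of Lamb1 without replicate 1 or 3 of cntrl (0.17 and 0.052) or replicate 2 or 3 of shCdk8-2 (0.11 and 0.14).

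Lists of genes that work with these chains were followed in the same way. Of 32 cytoplasmic adhesion proteins, which tie integrins to actin and to kinases, 30 were tested. With shCdk8-1, 4 rose and 20 fell, with shCdk8-2, 4 rose and 18 fell, and with SnxB in cntrl cells 8 rose and 2 fell. Over all genes tested, the shares called higher and lower were 30.0% and 30.6%, 28.7% and 29.5%, and 3.42% and 2.10% in the same order. The median log2 fold changes were -0.18, -0.19 and 0.07. By more than 2-fold, 1 rose and 3 fell with shCdk8-1, and 1 rose and 2 fell with shCdk8-2. Over all genes the shares beyond 2-fold were 5.01% higher and 7.32% lower with shCdk8-1, and 4.75% and 6.08% with shCdk8-2. The falls of more than 2-fold with both hairpins were those of Lims2, an adaptor that binds integrin-linked kinase, which went from 9.16 CPM ± 0.168 (SD, n = 3) in cntrl DMSO to 0.570 ± 0.228 and 1.22 ± 0.268, and Ptk2b, a relative of focal adhesion kinase, which went from 93.2 CPM ± 2.54 to 10.3 ± 0.846 and 20.8 ± 1.2. The log2 fold changes of Ptk2b were -3.17 ± 0.06 (adjusted p = 1.3e-15) and -2.17 ± 0.06 (adjusted p = 6.0e-14).

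Of 14 laminin partners, which are other laminin receptors and basement membrane proteins, 13 were tested, and 5 rose and 5 fell with each hairpin, with 3 up and 0 down under SnxB in cntrl cells. Beyond 2-fold, 3 rose and 0 fell with shCdk8-1 and 2 rose and 0 fell with shCdk8-2, where the all-gene shares were those given above. The counts with the hairpins at any fold change are read against the 28.7% to 30.6% of all genes called in each direction, and those with SnxB against 3.42% and 2.10%. Of 17 other integrin ligands 11 were tested, with 4 up and 6 down with shCdk8-1, 3 up and 6 down with shCdk8-2 and 1 up and 1 down with SnxB, against the same shares. Beyond 2-fold, 4 rose and 4 fell with shCdk8-1 and 2 rose and 2 fell with shCdk8-2, against the 2-fold shares above. Tnc, a matrix glycoprotein, fell by 2.61 ± 0.14 (adjusted p = 1.0e-10) and 1.25 ± 0.11 (adjusted p = 1.3e-07) on the log2 scale. Icam1, a ligand of the Itgb2 integrins, rose by 1.18 ± 0.19 (adjusted p = 5.0e-05) and 2.16 ± 0.17 (adjusted p = 1.7e-08). Thbs1, thrombospondin, had 0 to 2 counts in the cntrl DMSO libraries, 109 to 123 with shCdk8-1 and 9 to 24 with shCdk8-2.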

How the data were processed

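Single-end 50 bp RNA sequencing reads were trimmed with Trimmomatic and aligned with STAR to GRCm38 by the authors, per the labels and the study's methods. The deposited counts are raw reads per gene from featureCounts 1.5.1, counted by strand over exons, with exon length per gene as the length in the deposited tables. Nothing was normalized before deposit. Gene symbols were matched to 50376 of 50686 identifiers. The members and lists were chosen with earlier results of these data known. The file headers of the shCdk8-2 libraries carry the replicate numbers 2, 3 and 3 where the labels have 1, 2 and 3, and the labels were followed. Libraries of a group were compared by the chi-square of their counts over genes with a summed count of at least 20. No source says that the 3 libraries of a group are separate cultures, so p-values measure the spread between libraries, which may be technical.

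Genes were kept by edgeR's expression filter (minimum count 10, minimum total 15), scaled by TMM and tested with edgeR 4.0.16 (R 4.3.3) as group means without a replicate block, with Benjamini-Hochberg adjustment over all genes tested. Comparisons in DMSO and SnxB in cntrl cells used the 12 libraries of 4 groups (12590 genes), and all others used 18 libraries (12772 genes). Standard errors were derived from the F statistics. CPM were computed from the deposited counts with TMM over all 18 libraries, and RPKM by dividing by exon length. On simulated counts for the shCdk8-1 comparison, 200 of 12380 genes were changed, and 189 of these were recovered with 2 false calls. In the data of that comparison 30.0% of genes were called higher and 30.6% lower. Recovery and false calls at such shares were not tested. Members are named with values in every library if called and changed by more than 2-fold with either hairpin in DMSO or between hairpins, or called with SnxB or in an interaction. Of each list, at most 4 genes with the largest changes in both lines and a mean of at least 1 CPM are named, and Thbs1 is given as counts because it was near 0 in cntrl. Promoters came from RefSeq (GRCm38.p6). Alternatives were DESeq2 1.42.0, its size factors, library totals, no filter or a filter of 1 CPM in 3 libraries, a stricter adjusted p of 0.01, a replicate block, other sets of libraries in the fit and the omission of each library. The authors' own comparisons were not used. One marker of the lists is not reported here.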

Additional observations from a re-analysis of the deposited data

How the results depend on the processing

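No called member result changed direction under any alternative. Of 87 such results, DESeq2 lost 2, library totals 4, no filter 1, all 18 libraries 1, only the groups compared 3 and an adjusted p under 0.01 lost 11, while DESeq2 size factors and the 1 CPM filter lost 0. The deviations of same-numbered libraries had correlations of -0.16 to 0.25 over 8 pairs of groups, none with every pair above 0.1. They were 0.058 to 0.25 between cntrl and shCdk8-2 under SnxB, and 0.055 to 0.085 between the treatments of shCdk8-1. The cutoff of 0.1 cannot decide whether the numbers pair the libraries, and the shCdk8-2 labels differ from the headers. The replicate block ended 2 calls, Itga8 with shCdk8-1 (-0.85, adjusted p = 0.057) and Itga10 between the hairpins (0.53, adjusted p = 0.080), and added Itgb3 with SnxB in shCdk8-1 cells (0.35, adjusted p = 0.036). The count of members called with SnxB in cntrl cells went from 4 to 2 at an adjusted p under 0.01. In shCdk8-1 cells it went from 2 to 6 with no filter, 0 with only the groups compared and 1 at an adjusted p under 0.01, and in shCdk8-2 cells from 2 to 4 with only the groups compared. The shCdk8-1 interaction went from 0 to 3 with no filter. The calls over all genes moved too. With SnxB in shCdk8-1 cells, 117 of 12772 genes were called higher and 72 lower in the main fit. These became 178 and 389 of 27330 with no filter, and 38 and 12 of 11943 with only the groups compared. In shCdk8-2 cells, 126 and 136 became 157 and 145 of 12043 with only the groups compared. For the shCdk8-1 interaction, 9 and 30 became 56 and 333 with no filter. The cause was not tested. Leaving out each library gave 16 to 20 called members (6 to 10 beyond 2-fold) with shCdk8-1, 16 to 20 (6 to 8) with shCdk8-2, 5 to 8 (1 to 2) between the hairpins, 2 to 4, 1 to 3 and 0 to 3 with SnxB in cntrl, shCdk8-1 and shCdk8-2 cells, 18 to 20 (9 to 12) and 16 to 20 (5 to 8) for the hairpins under SnxB, and 0 for both interactions. The shares over all genes without each library and at an adjusted p under 0.01 are not given here. The member counts in those settings therefore show only how far the calls of the members moved. The Lamc1 difference with shCdk8-2, -0.00 as reported, was 0.00117 with DESeq2, 0.00115 with its size factors, 0.000502 with no filter, 0.0393 with library totals, 0.00597 with all 18 libraries and 0.0109 with only the groups compared, and ran from -0.0153 to 0.0258 without each library. With shCdk8-1 it ran from -0.0795 to 0.146. Genes with a few counts, such as Itga8 and Lama3, are limited by depth.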
